A study of Homo sapiens with 6 samples.

Results

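The control-guide libraries describe the transcriptome of unedited K562 cells, the baseline from which the series measured the loss of the zinc-finger factor ZNF410. They were chosen by their label, the control guide sgNeg2, and number 2 of the 6 libraries in all. K562 is an established human line from a chronic myeloid leukaemia. Both control libraries carried the genotype label WT. The other 4 libraries carried guide sgRNA1 or sgRNA2 against ZNF410, 2 libraries each, and are used here only beside the difference between the control replicates. All cells were grown in IMDM with fetal bovine serum and antibiotics, and total RNA was sequenced. The labels do not say whether the control cells were a pool or a clone, or whether replicates 1 and 2 came from separate cultures, so the spread between them may be technical.

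K562 cells sit between the red cell and megakaryocyte branches of blood formation. Red cell precursors switch from embryonic globin chains to fetal and then adult ones, and the factors GATA1, TAL1 and KLF1 drive their gene programme. The line carries the BCR-ABL1 fusion, a tyrosine kinase that acts through RAS and STAT5. Chromatin regulators set which of these programmes stay open: Polycomb complexes and DNA methyltransferases keep genes silent, while the SWI/SNF complex moves nucleosomes at active enhancers.

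Levels are in TPM, a share of all transcripts that is adjusted for gene length, so that genes can be compared with each other. A gene is called on at 1 TPM or more in both control libraries, off below 0.1 TPM in both, low between these limits in both, and mixed otherwise. Values of replicate 1 are given before those of replicate 2. The estimated read counts summed to 17228254 and 18581186. A gene near 1 TPM had a median of 28 estimated reads in replicate 1, for which the exact 95% Poisson interval, which covers counting error only, is 18.6 to 40.5.

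Of 28069 genes, 10926 (38.9%) were on, 1736 low, 13346 off and 2061 mixed, and 11440 had no estimated read in either library. By RefSeq symbol 18576 were protein-coding, of which 9780 (52.6%) were on and 6368 (34.3%) off. The share of protein-coding genes is the background for the count of genes on in each gene list. The median gene that was on had a mean level of 18.9 TPM. The 133 genes at 1000 TPM or more held 45.2% of the summed TPM, while the 3597 genes between 1 and 10 TPM held 1.78%.

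The most abundant messages were those of the ribosome, fetal globin, iron storage and elongation. The 30 genes with the highest mean TPM comprised 25 cytosolic ribosomal protein genes, both fetal globin genes, FTL, EEF1A1 and HSP90AB1. The 10 most abundant genes took 10.9% of the level in replicate 1 and 11.3% in replicate 2. Among the 30, 27 were in each library's own top 30.

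HBG2 and HBG1, which encode the fetal gamma chains, ranked 2 and 4 in the order. HBG2 had 10544 and 25310 TPM, and HBG1 had 6428 and 14051 TPM. Their sequences are nearly identical, and HBG1 had 989 and 2247 whole-number counts against 22845 and 50811 estimated reads, so the split between them is uncertain. Their sum was 16972 and 39360 TPM, 2.32 times higher in replicate 2. FTL, the light chain of ferritin, had 6953 and 9003 TPM. EEF1A1, the elongation factor that brings aminoacyl-tRNA to the ribosome, had 8322 and 6915 TPM and the largest estimated count of the 30 genes, 335939 and 277274 reads. HSP90AB1, a cytosolic chaperone, had 4150 and 5114 TPM.

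RPS18, a protein of the small ribosomal subunit, headed the order at 29159 and 19094 TPM. This value is uncertain. Its effective length was 77.5 bases in replicate 1, and its transcript was entered 6 times in the deposited tables. Its 28430 and 18511 estimated reads stood beside 143 and 56 whole-number counts. Genes with an effective length under 100 bases numbered 3 of the top 10, RPS18, RPS27 and RPS28. By estimated reads alone, which favour long messages, the 10 leading genes took 5.53% in place of 11.1%.

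**Figure D1:**
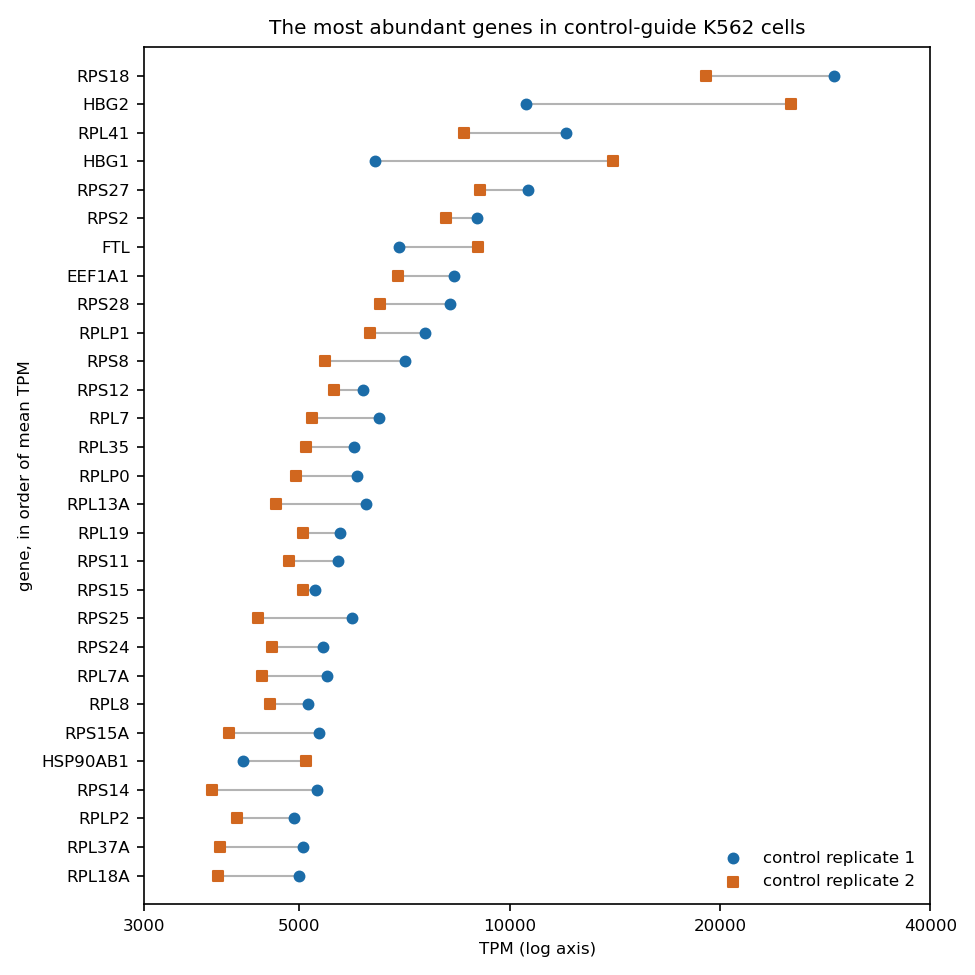
TPM on a log axis for the genes named among the 30 of highest mean TPM, from the highest at the top, with circles for control replicate 1 and squares for control replicate 2. HBG2 and HBG1 lie further right in replicate 2, at 25310 and 14051 TPM, while the ribosomal protein genes lie further right in replicate 1.

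By class, the 77 cytosolic ribosomal protein genes were all on and held 33.4% of the level in replicate 1 and 26.6% in replicate 2. Of these genes 76 were lower in replicate 2. Their share of estimated reads was 9.79% and 7.38%, since the messages are short. The 10 globin genes held 2.34% and 5.16% of the level, 90 nuclear-encoded respiratory chain genes 3.43% and 3.66%, and 76 genes named as translation elongation or initiation factors 2.93% and 2.74%. Heat shock protein genes held 1.39% and 1.73%, the 10 glycolytic enzyme genes 1.15% and 1.47%, and the ferritin genes FTL and FTH1 0.933% and 1.28%. The globin share thus differed between the libraries by more than its smaller value.

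Messages for the translation machinery are known to begin with a run of pyrimidines at the cap, which ties their translation to growth signals. Start-site windows are shown for 9 of the most abundant genes because most shared this feature. Each runs from 10 bases before to 20 after the first start that RefSeq lists (GRCh38.p14), 5′ to 3′. Capitals mark a C followed by at least 6 bases that are each C or T, beginning between 5 bases before and 10 after the start.
RPS18 (chr6:33272065-33272094, plus strand): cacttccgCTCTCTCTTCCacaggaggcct
RPL41 (chr12:56116623-56116652, plus strand): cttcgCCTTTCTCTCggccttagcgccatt
RPS27 (chr1:153990752-153990781, plus strand): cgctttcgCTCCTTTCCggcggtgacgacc
EEF1A1 (chr6:73521013-73521042, minus strand): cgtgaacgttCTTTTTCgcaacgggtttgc
RPS28 (chr19:8321486-8321515, plus strand): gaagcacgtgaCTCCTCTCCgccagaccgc
RPLP1 (chr15:69452808-69452837, plus strand): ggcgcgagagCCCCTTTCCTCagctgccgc
RPL35 (chr9:124861938-124861967, minus strand): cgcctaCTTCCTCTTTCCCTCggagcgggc
FTL (chr19:48965299-48965328, plus strand): acgtcccctcgcagttcggcggtcccgcgg
RPL19 (chr17:39200273-39200302, plus strand): tctccccttcgcagataatgggaggagccg
Of the top 30 genes, 20 had an entry in the RefSeq promoter table, and 17 of these (85.0%) held such a run. FTL and RPL19 did not hold it in the window searched. The share was 70.8% of 72 genes in the top 100, 77.4% of 62 ribosomal protein genes, and 45.5% of the 22 genes of the top 100 that encode no ribosomal protein. It was 9.87% of all 27305 promoters in the table, 10.8% of 8461 genes that were on and 9.39% of 6956 that were off. The run therefore marked the head of the order and hardly separated genes that were on from those that were off. The count of CG dinucleotides in the 250 bases before the start did separate them, with a median of 21 for genes that were on and 5 for genes that were off.

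The erythroid programme was on, with its embryonic and fetal globins and without the adult beta chain at a comparable level. The list of 11 held 10 globin genes and AHSP, a chaperone of the alpha chain, and 9 were on. HBZ, the embryonic alpha-like chain, had 869 and 3460 TPM, and HBE1, the embryonic beta-like chain, had 255 and 1246 TPM. The adult alpha genes HBA2 and HBA1 summed to 5221 and 7387 TPM, and their split is uncertain because their whole-number counts were under 0.1 of the estimated reads. HBB, the adult beta chain, had 3.65 and 28.6 TPM, and HBE1 was 69.9 times HBB in replicate 1 and 43.6 times in replicate 2. HBD, the minor adult chain, had 0.67 and 25.1 TPM and was mixed. HBQ1 had 59.3 and 53.2 TPM, AHSP 91.7 and 91.3 TPM. HBM had no estimated read, and 3 reads would have been 1.14 TPM in replicate 1, so this short gene could not be told from one at the on threshold.

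Of 18 erythroid transcription factor genes 16 were on, beside 52.6% of all protein-coding genes. GATA1 had 281 and 275 TPM and GATA2, its partner in progenitors, 143 and 120 TPM. KLF1, the activator of adult beta globin, had 201 and 282 TPM. NFE2 stood at 249 and 206 TPM, MYB at 145 and 101, LYL1 at 133 and 138, LDB1 at 116 and 151, GFI1B at 71.9 and 108, LMO2 at 65.3 and 57.6, and TAL1 at 27.9 and 46.1. The ranges of GATA1 and GATA2 did not overlap, nor did those of LYL1 and TAL1, which encode related factors and whose mean log2 ratio, TAL1 to LYL1, was -1.88 on the TPM + 1 scale and -0.39 on the estimated CPM + 1 scale. The order of GATA1 and GATA2 turned with the scale, with a mean log2 ratio of 1.08 in TPM + 1 and -0.31 in estimated CPM + 1, which is not adjusted for length. BCL11A, the repressor of fetal globin in adult cells, was off at 0.04 and 0 TPM, with 1 and 0 estimated reads. SOX6, which acts with BCL11A, was mixed at 0.68 and 1.03 TPM, while ZBTB7A, another fetal globin repressor, was on at 11.6 and 16.8 TPM.

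Genes of the red cell membrane and blood groups were on in 17 of 20 cases, from 1.69 to 460 TPM in the mean. RHAG, the ammonium channel of the Rh complex, had 380 and 540 TPM. GYPC, a glycophorin, had 274 and 297 TPM. Other members were lower: SPTB, a spectrin chain, had 29.4 and 63.1 TPM, and ANK1, which ties spectrin to the membrane, 50.2 and 84.9 TPM. Some genes of the mature red cell membrane lay near or below the on threshold. SLC4A1, the band 3 anion exchanger, had 0.8 and 2.34 TPM, the membrane protein gene EPB42 had 1.52 and 2.38 TPM, and the urea transporter gene SLC14A1 had no estimated read (3 reads would be 0.0653 TPM in replicate 1). The whole list leaned to replicate 2, with 18 of the 19 members of mean TPM of at least 1 higher there, at a median log2 difference of 0.75 against 0.12 over all 11339 genes at that level.

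The motif bound by GATA factors is shown in 5 promoters chosen because they hold it, together with the promoter of ERMAP, which was on without it. Each line gives the 120 bases before the first RefSeq start, 5′ to 3′, with capitals for GATAA or GATAG preceded by A or T, on either strand.
RHAG (chr6:49636840-49636959, minus strand): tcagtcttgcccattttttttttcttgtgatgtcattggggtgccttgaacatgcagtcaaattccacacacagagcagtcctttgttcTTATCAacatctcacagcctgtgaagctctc
GYPB (chr4:144019381-144019500, minus strand): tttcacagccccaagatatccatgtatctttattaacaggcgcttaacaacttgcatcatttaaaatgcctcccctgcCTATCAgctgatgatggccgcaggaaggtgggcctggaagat
SPTB (chr14:64879908-64880027, minus strand): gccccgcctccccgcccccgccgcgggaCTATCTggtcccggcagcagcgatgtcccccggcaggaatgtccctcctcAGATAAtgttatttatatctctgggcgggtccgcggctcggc
KEL (chr7:142962364-142962483, minus strand): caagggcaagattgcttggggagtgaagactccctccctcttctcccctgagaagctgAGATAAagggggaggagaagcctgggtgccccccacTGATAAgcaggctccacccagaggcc
KLF1 (chr19:12887202-12887321, minus strand): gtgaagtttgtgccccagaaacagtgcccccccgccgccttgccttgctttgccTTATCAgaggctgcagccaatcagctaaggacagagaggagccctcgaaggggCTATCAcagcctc
ERMAP (chr1:42817002-42817121, plus strand): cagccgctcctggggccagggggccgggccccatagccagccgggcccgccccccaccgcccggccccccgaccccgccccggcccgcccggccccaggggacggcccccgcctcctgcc
Among 13 red cell membrane and blood group genes that were on and had a promoter entry, 9 (69.2%) held the motif within 250 bases before the start. The share was 12.6% of all genes that were on, 27.0% of genes that were off and 22.9% of all promoters in the table. It was 64.3% of the 14 listed membrane genes on or off, 16.7% of 12 haem and iron genes and 55.6% of 9 megakaryocyte markers, of which 3 were on. Of the 16 erythroid transcription factors with a promoter entry 3 (18.8%), KLF1 among them, held it, a share under that of all promoters. Of 7 mast cell, basophil and eosinophil markers 6 (85.7%) held it, although only 1 of the 11 genes on that list was on. A match of 6 letters does not show binding.

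Haem synthesis and iron uptake were represented almost in full, with 16 of 17 genes on. ALAS2, the erythroid form of the first enzyme of haem synthesis, had 11.1 and 32.5 TPM. It lay below ALAS1, the form of all tissues, at 35.8 and 46.2 TPM in both libraries. UROD had 382 and 424 TPM and FECH, which inserts the iron, 16.9 and 45.6 TPM. TFRC, the transferrin receptor, had 425 and 804 TPM. HMOX1, the haem-degrading enzyme, had no estimated read, where 3 reads would be 0.185 TPM in replicate 1. All 16 genes that were on were higher in replicate 2, as were 62.3% of all 11339 genes with a mean of at least 1 TPM. Among 10 late erythroid genes 7 were on, among them BLVRB (568 and 672 TPM), PRDX2 (626 and 909 TPM), HEMGN (125 and 206 TPM) and CA1 (89.1 and 115 TPM), whereas the carbonic anhydrase gene CA2 had no estimated read.

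Few markers of the other blood lineages were on, beside 52.6% of all protein-coding genes, though many of the rest were low or mixed rather than off. Of 16 megakaryocyte markers, 4 were on. PF4, PPBP and the factor gene FLI1 had no estimated read. ITGA2B, the platelet integrin alpha chain, had 9.83 and 1.25 TPM, TUBB1, the platelet tubulin, 5.00 and 21.8 TPM, and MYL9 5.22 and 2.47 TPM. GP1BB was listed at 74.9 and 158 TPM, but had 0 whole-number counts in both libraries against 619 and 1307 estimated reads, and is uncertain.

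Of 18 granulocyte and monocyte markers 4 were on, and each was lower in replicate 2. SPI1, the myeloid factor PU.1, had 33.8 and 4.55 TPM. LYZ, which encodes lysozyme, had 16.7 and 3.01 TPM, the surface receptor gene CD33 62.8 and 35.1 TPM, and CD68 58.9 and 32.4 TPM. The granule genes MPO and ELANE had no estimated read. Of 11 mast cell, basophil and eosinophil markers, 1 was on: PRG2, the eosinophil major basic protein, at 288 and 23.7 TPM, beside EPX at 0.16 and 0.10 TPM.

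T and NK lymphoid markers were on in 3 of 16 cases. CD3D, a chain of the T cell receptor complex, had 52.7 and 10.1 TPM, while CD3E and CD3G, which share its locus, lay under 0.5 TPM. TCF7 had 7.23 and 2.74 TPM and CD7 2.35 and 1.14 TPM. None of the 12 B lymphoid markers was on, and PAX5, EBF1 and MS4A1 had no estimated read. The summed level of the T and NK list was 64.1 and 15.2 TPM, most of it CD3D, and that of the B list 2.70 and 0.90 TPM.

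Markers of other tissues differed by list. None of 10 neural and liver markers was on. Among 8 epithelial markers 4 were on, near the 52.6% of all protein-coding genes: the keratin genes KRT18 (351 and 270 TPM), KRT8 (290 and 209 TPM) and KRT19 (139 and 118 TPM), and the adhesion gene EPCAM (104 and 109 TPM). CDH1, the epithelial cadherin, was low at 0.26 and 0.34 TPM, and ESRP1 and KRT5 had no estimated read. Of the 12 fibroblast and endothelial markers 1 was on, the intermediate filament gene VIM at 471 and 265 TPM, with the collagen genes COL1A1 and COL3A1 off.

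**Figure D2:**
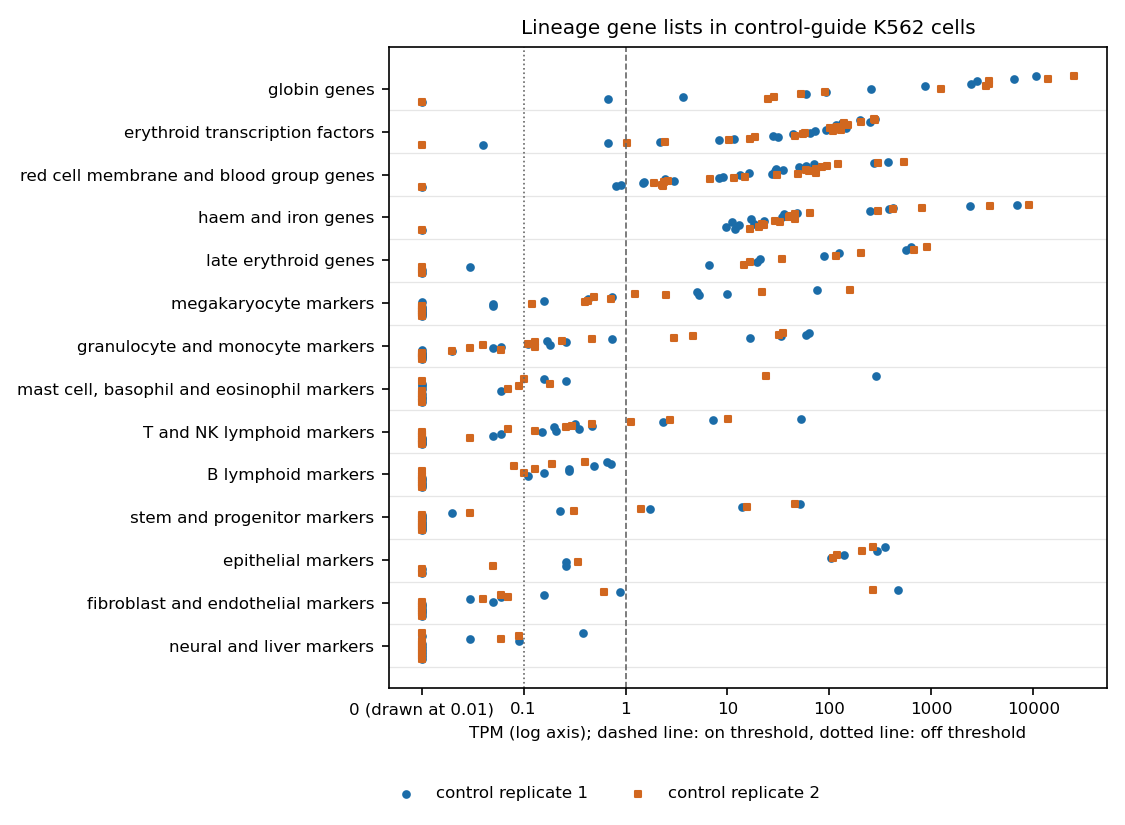
TPM on a log axis for every member of 14 lineage lists, with circles for control replicate 1 and squares for control replicate 2, values of 0 drawn at 0.01, a dashed line at 1 TPM and a dotted line at 0.1 TPM. The 5 erythroid lists at the top lie mostly to the right of 1 TPM, and the B lymphoid and the neural and liver lists lie wholly to the left of it.

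Stem and progenitor markers were on in 3 of 13 cases. CD34, FLT3, ERG and PROM1 had no estimated read, for which 3 reads would be at most 0.0995 TPM. KIT, the stem cell factor receptor, was low at 0.23 and 0.31 TPM. The exceptions were HOXB4 at 51.4 and 46.3 TPM, MECOM at 13.8 and 15.5 TPM and MEIS1 at 1.74 and 1.42 TPM. HOX genes, which record position and stage, were on by cluster. In the HOXB cluster 6 of 10 genes were on, led by HOXB9 (157 and 104 TPM), HOXB2 (53.3 and 52.4 TPM) and HOXB4. In the HOXC cluster 3 of 9 were on, the highest being HOXC9 at 9.57 and 8.22 TPM. In the HOXA cluster HOXA9, which marks many acute leukaemias, had no estimated read. All 9 HOXD genes were off and listed at 0.

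The fetal and germ-line genes that were on formed a short set. LIN28B, which blocks maturation of the let-7 microRNAs, had 34.1 and 54.9 TPM. The RNA-binding protein genes IGF2BP1, IGF2BP2 and IGF2BP3 had 51.7 and 79.5 TPM, 65.7 and 69.5 TPM, and 31.6 and 36.6 TPM. The pluripotency genes SOX2 and LIN28A had no estimated read, and POU5F1 and NANOG lay at or under 0.20 TPM. Of 22 cancer-testis antigen genes, which are normally confined to germ cells, 6 were on. PRAME had 224 and 254 TPM, MAGEA3 196 and 221 TPM, MAGEB2 135 and 92.3 TPM, MAGEC2 46.6 and 40.6 TPM and MAGEC1 15.5 and 18.2 TPM. PRAME is uncertain, since its transcripts carried several copies in the tables and its whole-number counts were under 0.1 of the estimated reads.

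The silencing machinery was on almost without exception, beside 52.6% of protein-coding genes in all. All 12 genes of Polycomb repressive complex 2 (PRC2), which methylates histone H3 at lysine 27, were on. EZH2, its catalytic subunit, had 79.2 and 99.8 TPM, 11.2 and 8.39 times the level of EZH1, the form of resting cells, at 7.04 and 11.9 TPM. With 1 added to each value, which lowers the ratio of a low gene, the mean log2 ratio was 3.14 in TPM and 2.37 in estimated CPM. The core subunit genes SUZ12 and EED had 44.3 and 53.7 TPM and 37.7 and 46.3 TPM. PHF19, an accessory subunit that brings the complex to CpG islands, was the highest of the list at 236 and 344 TPM, above its relatives MTF2 (26.3 and 23.5 TPM) and PHF1 (14.1 and 13.5 TPM). All 18 genes of Polycomb repressive complex 1 were on too, from 3.34 to 84.9 TPM in the mean. BMI1 had 66.0 and 104 TPM and its relative PCGF2 16.6 and 12.4 TPM. For RING1, BMI1 and the NuRD subunit gene GATAD2B the whole-number counts were under 0.1 of the estimated reads, so the pairs they enter are uncertain.

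Among 13 DNA methylation genes 12 were on. DNMT1, which copies methylation after replication, had 111 and 131 TPM, and its partner UHRF1 76.5 and 106 TPM. Of the enzymes that set new marks, DNMT3B had 30.7 and 33.1 TPM against 4.30 and 6.29 TPM for DNMT3A, and the cofactor gene DNMT3L had no estimated read. The demethylases followed the order TET1 (11.1 and 9.90 TPM), TET3 (7.17 and 10.7 TPM) and TET2 (1.71 and 2.65 TPM). TET1 and TET3 overlapped, and TET2 lay below both in each library.

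The NuRD complex, which joins nucleosome remodelling to histone deacetylation, had 14 of 15 genes on. CHD4, its remodeller, which ZNF410 is known to activate, had 126 and 159 TPM in these unedited cells. The related CHD3 had 13.2 and 18.1 TPM, so CHD4 was 9.56 and 8.79 times higher, and the neural CHD5 was off at 0.06 and 0.01 TPM. RBBP7 (219 and 244 TPM), HDAC1 (184 and 229 TPM) and MTA2 (140 and 181 TPM) led the other subunits. HDAC2 had 46.5 and 49.0 TPM, and the mean log2 ratio of HDAC1 to HDAC2 was 2.08 in TPM + 1 and 0.28 in estimated CPM + 1.

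Of 26 SWI/SNF subunit genes 24 were on. SMARCA4, which encodes the ATPase BRG1, had 112 and 121 TPM against 18.0 and 16.96 TPM for the alternative ATPase gene SMARCA2. ACTL6A had 149 and 138 TPM, while its neuronal counterpart ACTL6B had no estimated read. DPF2 had 64.6 and 71.8 TPM and DPF3 0.46 and 0.78 TPM. ARID1A (27.2 and 36.5 TPM) and ARID1B (19.5 and 23.3 TPM), which define the canonical complex, lay close together, with a log2 ratio of TPM + 1 of 0.54 ± 0.12 (SD, n = 2), and ARID2 and PBRM1 of the PBAF form had 9.67 and 16.5 TPM and 9.66 and 14.9 TPM.

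Of 32 histone-modifying enzymes and their partners 31 were on, HDAC9 being low at 0.22 and 0.35 TPM. TRIM28, the corepressor of KRAB zinc fingers, was the highest at 364 and 419 TPM. KDM1A, the demethylase that works with GFI1B, had 123 and 136 TPM and HDAC3 114 and 126 TPM. HDAC7 had 83.1 and 44.9 TPM. Over 25 pairs of related genes, 24 had separate ranges in the control libraries, with the first-named gene higher in 20 pairs and lower in 5, and the SDs of the log2 ratios ran from 0.01 to 0.99. The widest was HBZ to HBA2, at -1.49 and -0.09.

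**Figure D3:**
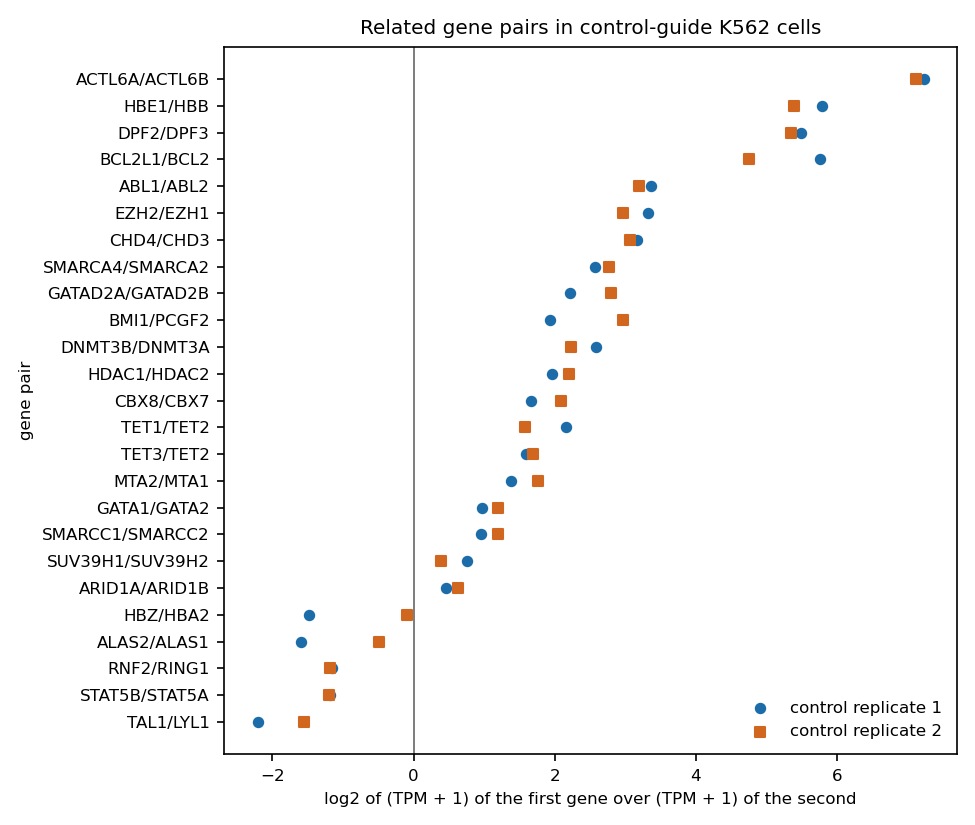
Log2 ratio of TPM + 1 between related genes, 1 row per pair, with circles for control replicate 1, squares for control replicate 2 and a line at equal levels. EZH2, CHD4, SMARCA4 and DNMT3B lie right of the line in both libraries, and the HBZ and ALAS2 pairs show wide gaps between the replicates.

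The signalling chain of the fusion kinase was on in 19 of 20 genes. BCR had 23.2 and 35.5 TPM and ABL1 61.4 and 76.9 TPM, and gene-level values do not separate the fusion message from those of the normal alleles. ABL2 had 5.08 and 7.51 TPM, so ABL1 was 12.1 and 10.2 times higher. With 1 added to each value, the mean log2 ratio was 3.28 in TPM and 2.34 in estimated CPM. CRKL, an adaptor and substrate of the kinase, had 123 and 176 TPM, GRB2 70.7 and 80.8 TPM and GAB2 22.1 and 21.2 TPM. STAT5A had 181 and 143 TPM and STAT5B 79.6 and 61.7 TPM, with separate ranges. JAK2 and JAK1 were on at 12.4 and 18.0 TPM and at 15.9 and 14.9 TPM, and JAK3 was mixed at 0.05 and 0.12 TPM.

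Known STAT5 targets and feedback genes of STAT5 and MAPK signalling were on in 18 of 20 cases. PIM1, a survival kinase, had 577 and 340 TPM, PIM2 177 and 151 TPM, MYC 189 and 182 TPM and BCL2L1, which encodes BCL-XL, 135 and 83.0 TPM. The STAT5 feedback inhibitor genes CISH and SOCS2 had 81.7 and 65.6 TPM and 53.7 and 63.5 TPM. The MAPK feedback genes were unequal. SPRED2 had 33.1 and 34.8 TPM and SPRY4 9.59 and 6.55 TPM, whereas the ERK phosphatase gene DUSP6 had 0.10 and 0.08 TPM and DUSP4 had no estimated read. EGR1, an immediate early gene, had 187 and 7.40 TPM, so its level depends on which library is read. Of 20 apoptosis regulators 15 were on, beside 52.6% of all protein-coding genes. BCL2 had 1.52 and 2.11 TPM, and BCL2L1 was 88.9 and 39.3 times higher. MCL1 had 102 and 92.9 TPM, the effector gene BAX 117 and 130 TPM and BIRC5, which encodes survivin, 97.8 and 108 TPM.

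Cytokine and growth factor receptor genes were on in 12 of 24 cases, a share near the 52.6% of all protein-coding genes. EPOR, the erythropoietin receptor, had 6.62 and 14.6 TPM, IL2RG 48.3 and 37.2 TPM, and the interferon receptor genes IFNAR1, IFNAR2, IFNGR1 and IFNGR2 between 11.5 and 31.3 TPM. The receptor gene CSF3R was off, and FLT3 and CSF2RA had no estimated read. TGFBR1 was on at 23.5 and 30.4 TPM, and TGFBR2, its partner in TGF-beta binding, was off at 0.07 and 0.02 TPM.

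Antigen presentation showed a gap at the class I heavy chains. HLA-B and HLA-C had 1 estimated read each in replicate 1 and 0 in replicate 2. B2M, the light chain, had 397 and 343 TPM, and the loading genes CALR and PDIA3 690 and 959 TPM and 348 and 376 TPM. TAP2 and TAPBP were on at 9.55 and 8.68 TPM and at 19.9 and 15 TPM. HLA-E, the ligand of an inhibitory NK receptor, had 52.4 and 13.6 TPM. The activators NLRC5 (class I) and CIITA (class II), the immunoproteasome gene PSMB8 and the class II genes HLA-DRA and HLA-DRB1 had no estimated read. In all, 7 of 22 genes were on.

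Ligands of activating NK receptors were on in 8 of 11 cases, beside 52.6% of all protein-coding genes. NECTIN2 had 55.1 and 20.6 TPM, BAG6 20.2 and 20.7 TPM, ULBP1 18.4 and 4.32 TPM, ULBP2 13.4 and 5.11 TPM, MICA 12.97 and 10.1 TPM and NCR3LG1, the B7-H6 gene, 8.33 and 25.5 TPM. NECTIN2, ULBP1 and ULBP2 were at least 2-fold lower in replicate 2 and NCR3LG1 higher.

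The HLA values depend on the estimated reads. From HLA-F to HLA-DPB1 (chr6:29723434-33089696, a stretch chosen after its values were seen), 50 protein-coding genes had at least 200 estimated reads over both libraries. Whole-number counts were under 0.1 of these for 43 of the 50, with a median ratio of 0.0120. Elsewhere this held for 3.28% of 9316 genes, with a median ratio of 0.543. All 50 genes had numbered copies of a transcript in the deposited tables, against 288 of the 9316. HLA-E had 19 and 4 whole-number counts against 1555 and 401 estimated reads.

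Cell cycle brakes were on in 10 of 13 cases, beside 52.6% of all protein-coding genes, with the CDKN2A locus as the gap. CDKN2A, which encodes p16 and ARF, and CDKN2B had no estimated read, where 3 reads would be 0.260 and 0.0659 TPM in replicate 1. CDKN1B had 32.5 and 32.2 TPM, CDKN2C 37.5 and 56.1 TPM and RB1 17.9 and 23.7 TPM. CDKN1A, an inhibitor of cyclin-dependent kinases, had 2.08 and 0.60 TPM, and MDM2 15.95 and 22.2 TPM.

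The silence around CDKN2A ran through a long stretch of the short arm of chromosome 9. Between MLLT3 (4.84 and 6.87 TPM) and CAAP1 (25.5 and 17.7 TPM) the tables listed 36 genes with RefSeq positions on GRCh38.p14, which span chr9:20655625-25812968. None was on. Of 26 protein-coding genes 25 were off and 24 had no estimated read, including 16 interferon genes, which are silent in most unstimulated cells. HACD4 and KLHL9, which are no interferon genes, were at 0 as well, and MTAP, an enzyme of methionine salvage, had 1 and 0 estimated reads. FOCAD, at the MLLT3 end, had 0.34 and 0.37 TPM from 25 and 27 reads. Past the stretch, CAAP1, PLAA and IFT74 were on in both libraries. In expression values, lost and silent DNA cannot be told apart.

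**Figure D4:**
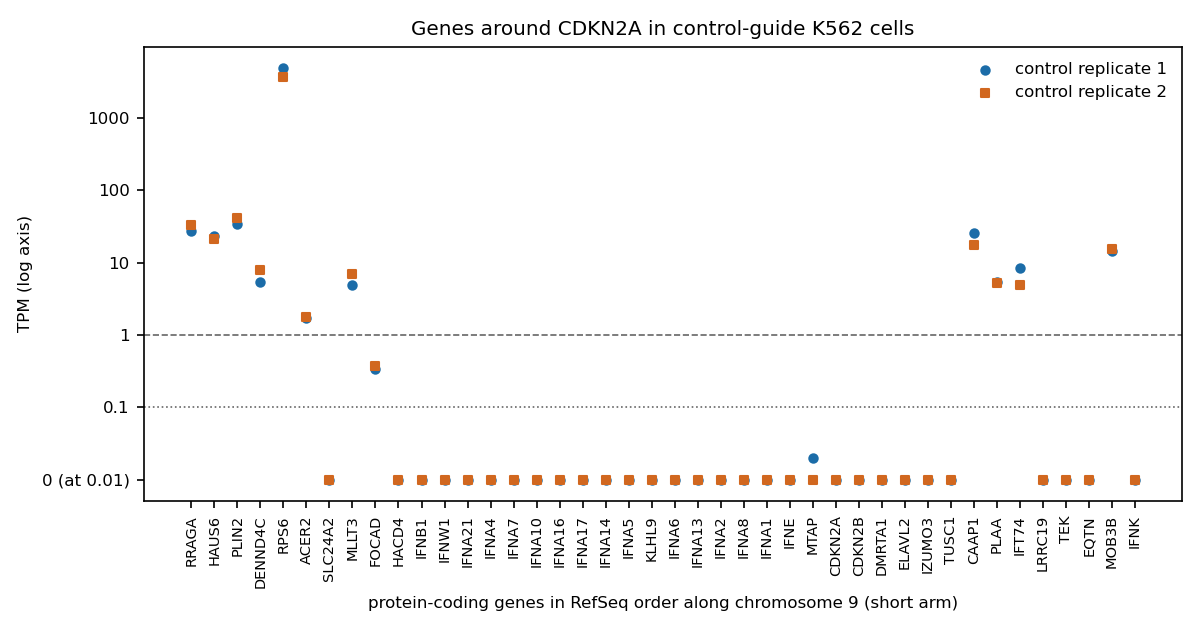
TPM on a log axis for protein-coding genes in their order along the short arm of chromosome 9, with circles for control replicate 1 and squares for control replicate 2, and values of 0 drawn at 0.01. Every gene from HACD4 to TUSC1 lies at 0 in both libraries but MTAP, which had 0.02 TPM in replicate 1, while genes on either side reach above 1 TPM.

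The control libraries differed from each other in globin and red cell membrane genes and in a set of genes that were lower in replicate 2. Among 11339 genes with a mean of at least 1 TPM, log2(TPM + 1) correlated across genes at Pearson r = 0.969 and Spearman's rho = 0.967, which describes these libraries only, since genes are not independent. The median absolute log2 difference was 0.27. With 1 library a side no test was possible. At least a 2-fold difference on the log2(TPM + 1) scale was seen in 183 genes (1.61%) that were higher in replicate 2 and 332 (2.93%) that were lower. With TMM scaling of estimated counts, a scaling that takes most genes as equal, the split was 121 higher and 427 lower. The median log2 difference of all these genes was 0.01 there and 0.12 in TPM. The TMM factors were 0.999982 and 1.00002, so the scaling itself changed almost nothing. Values with TMM scaling are thus in effect estimated CPM, which is not adjusted for length. The counts were 296 and 505 with a pseudocount of 0.1, and 87 and 130 at a mean of at least 10 TPM.

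The 10 most different of the higher genes by the rule for named genes held 4 globin genes. HBD, HBB, HBE1 and HBZ had log2 differences of 3.96, 2.67, 2.28 and 1.99. The HBD value rests on 4 estimated reads in replicate 1 and 150 in replicate 2. TUBB1 differed by 1.93, and the inducible chaperone gene HSPA1A, at 135 and 509 TPM, by 1.9. The neuronal cytoskeleton genes MAP1A (2.84 and 18.6 TPM) and NEFH (54.7 and 179 TPM) and the pseudogene NSFP1 (7.76 and 28.1 TPM) were also among them. NSFP1 resembles the gene NSF and is uncertain. HSPA1A has a near copy in HSPA1B, and their sum was 240 and 842 TPM.

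Of the 10 most different of the lower genes, EGR1 came first with 187 and 7.40 TPM, a log2 difference of -4.49. DDIT4, a stress-induced inhibitor of mTOR signalling, had 793 and 41.1 TPM (-4.24). CHAC1, which degrades glutathione under amino acid stress, had 76.0 and 3.58 TPM (-4.07), PHGDH, the first enzyme of serine synthesis, 139 and 10.3 TPM (-3.62), and ASS1, an enzyme of arginine synthesis, 32.6 and 2.13 TPM (-3.42). MS4A3 and PRG2, genes of granulocytes, had 95.5 and 5.52 TPM and 288 and 23.7 TPM, and the activation marker CD69 24.2 and 1.05 TPM. S100P and PRSS2 had log2 differences of -4.40 and -3.44 from 94 and 2 and from 184 and 10 estimated reads.

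By list, among members at a mean of at least 1 TPM, 8 of 9 globin genes, 18 of 19 red cell membrane and blood group genes and 16 of 16 haem and iron genes were higher in replicate 2, beside 62.3% of all genes at that level. Of 16 erythroid transcription factors 10 were higher, a share near that of all genes, none differed 2-fold, and NFE2, MYB, GATA2 and LMO2 were lower. The median log2 difference of these members was 1.26 for globin genes, 0.75 for red cell membrane and blood group genes, 0.39 for haem and iron genes and 0.20 for erythroid transcription factors, beside 0.12 over all genes at that level. It was -1.49 for the 4 granulocyte and monocyte markers at that level and -1.14 for the 3 T and NK markers, all of them lower in replicate 2. With TMM scaling, applied to the lists after the data were seen, and less its all-gene median, the medians were 1.16, 0.56, 0.27 and 0.10 for the erythroid lists in the same order, and -1.59 and -1.34 for the granulocyte and T and NK markers. In whole-number CPM the medians kept their signs, and 1 of the 3 T and NK markers was higher. In that unit 6 of 9 globin genes, 16 of 19 red cell membrane and blood group genes and 15 of 16 haem and iron genes were higher. The share of all genes was 48.7%. GATA1 itself had nearly equal values in both libraries.

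Many of these genes also differed between the replicates of the other guides, which share no library with the control pair. Of the 332 genes lower in control replicate 2, 227 (68.4%) were at least 2-fold lower in replicate 2 with sgRNA1 and 195 (58.7%) with sgRNA2, against 2.93% and 2.65% of all 11339 genes. Of the 183 higher genes, 67 (36.6%) and 60 (32.8%) were at least 2-fold higher, against 1.08% and 1.42%. The labels do not say what a replicate number stands for.

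**Figure D5:**
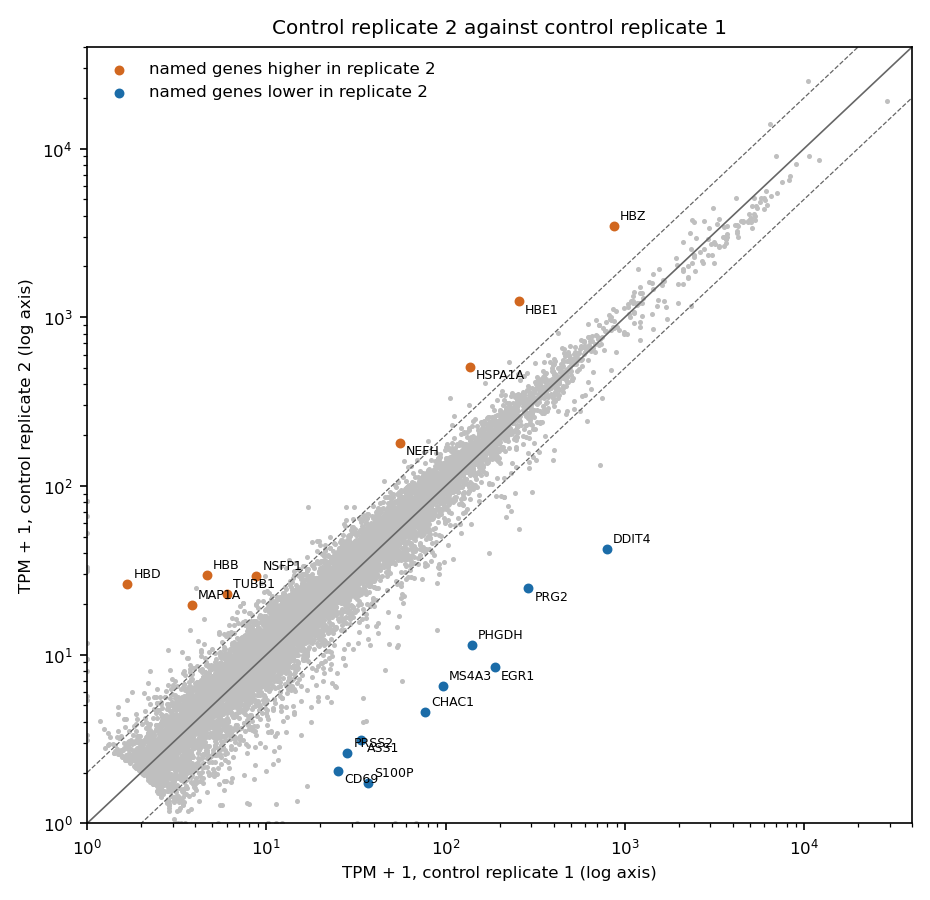
TPM + 1 of each gene with a mean of at least 1 TPM in control replicate 2 against control replicate 1, on log axes, with a solid line at equal levels and dashed lines at 2-fold. The named genes higher in replicate 2, led by HBD, lie above the dashed band and the 10 lower ones, led by EGR1, below it.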

How the data were processed

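RNA-seq of K562 cells was analysed from the tables of 2 control-guide libraries. Those of the 4 libraries with a guide against ZNF410 entered 1 step, the count of genes that also differed between replicates 1 and 2 of those guides. The tools named in the submitters' processing notes, without their roles, are Trim Galore, HISAT2 2.2.1, SAMtools 1.9, HTSeq 0.6.1, RSEM 1.3.2 and DESeq2 1.36.0, with the build hg38. Per the file headers, the authors deposited 1 table per library with an estimated count (RSEM's expected count), TPM and FPKM per gene, and a second with whole-number counts. Its 5 rows of no gene held 62.1% and 61.6% of the totals and were left out. Gene rows summed to 8788816 and 9441884 counts. The strand setting is not given in the sources used here, so overlapping and antisense genes are uncertain.

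The deposited TPM was used as it stood. TPM recomputed from estimated counts and effective lengths came within 2% for every gene at 1 TPM or more. The difference between the control libraries was log2((TPM + 1 of replicate 2)/(TPM + 1 of replicate 1)), called at 2-fold among genes with a mean of at least 1 TPM. No test was run, since the control libraries were compared 1 against 1. Named genes were the 30 of highest mean TPM, the members of 30 lists, HOX genes, and the 10 each way with the largest difference among genes of mean TPM at least 10 that also differed 2-fold in whole-number CPM. Neighbours of CDKN2A and genes in the region of the HLA genes were added. Members and lists were chosen with earlier results of these data known. Promoters matched 17764 of 28069 genes by symbol in RefSeq (GRCh38.p14), taking the first start listed, and 26190 genes had a RefSeq position. TMM factors for 1 alternative came from edgeR 4.0.16 in R 4.3.3, on estimated counts rounded to whole numbers. Other values came from Python 3.11.15, pandas 2.3.3 and scipy 1.17.1. The calls were tested on simulated data. Some members of the lists are not reported here by name.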

Additional observations from a re-analysis of the deposited data

How the results depend on the processing

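No paired analysis was possible because no groups were compared: the values describe the control guide alone. A test of replicate 2 against replicate 1 over all the guides was left out by choice. The number of genes on ran from 10112 to 11657 over the thresholds, units and left-out libraries tried, and the number off from 9809 to 14169, all within 1.5 times. The share of the top 10 genes, 11.1% in TPM, was 5.53% of estimated counts, 5.41% of whole-number counts and, in a setting chosen after seeing the data, 9.22% among genes of effective length at least 100 bases. Leaving out a library gave 10.9% to 11.3%. The ribosomal protein share, 26.6% to 33.4% by library, was 8.59% of estimated and 7.67% of whole-number counts. Genes 2-fold higher in replicate 2 numbered 296 with a pseudocount of 0.1, 87 at a mean TPM of at least 10 and 121 with TMM scaling, against 183, and those lower 505, 130 and 427, against 332. Of 150 list counts under other settings, 147 stayed within 1.5 times. The exceptions were 1 B lymphoid marker by whole-number CPM, and 2 fibroblast and endothelial markers by that unit or at 0.5 TPM. Of 50 values for pairs of genes in estimated or whole-number CPM, which are not adjusted for length, 21 moved by no more than the SD between the libraries, 25 moved by more with the same sign, and 4 turned in sign: RNF2 to RING1 (5.08) and HBZ to HBA2 (1.47) in whole-number counts, and GATA1 to GATA2 in estimated (-0.31) and whole-number (-0.19) counts. Depth limits short genes most: 3 reads of HBM came to 1.14 TPM in replicate 1, and 3 reads of PAX5 to 0.0283 TPM. With 2 libraries the spread of any value is poorly known.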

Other observations

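Genes with many CG dinucleotides before their start are mostly active in any cell, so runs of neighbours that are off were listed. Of 8692 protein-coding genes with at least 15 CG in the 250 bases before the first RefSeq start, 6319 (72.7%) were on and 1529 (17.6%) off. On chromosomes other than Y, 26 runs of at least 4 such genes in a row were off. The longest held 7 genes each. One was the HOXD cluster (chr2:176087487-176190907), and the other, on chromosome 19 from ZNF583 to ZNF264 (chr19:56404014-57222846), held zinc-finger genes and the ubiquitin peptidase gene USP29. Further runs of zinc-finger genes on chromosome 19 held 6 genes (ZNF382 to ZNF568) and 5 genes (ZNF256 to ZSCAN18).

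The run around CDKN2A held 5 such genes, HACD4, KLHL9, CDKN2A, CDKN2B and ELAVL2. A second run on the short arm of chromosome 9 also held 5, CCDC171, BNC2, CNTLN, SH3GL2 and SAXO1 (chr9:15552885-19049339), with a run of 5 on chromosome 10 (chr10:88171523-89556704) that holds ACTA2 and LIPA. These runs were noticed in the data, and no test bears on what produced them.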
